A study of Mus musculus with 2 samples.

Results

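Of the 18193 genes named on these arrays, 63 belonged to the SLC1, SLC3, SLC6, SLC7, SLC36, SLC38 and SLC43 families, the solute carriers that move amino acids and related compounds across membranes. They were chosen by symbol alone and were covered by 125 of 45037 probe sets, each probe set being a group of short probes against 1 transcript. Of the 63 genes, 60 are transporter genes or their partner chains, and 3 (Slc36a1os, Slc6a19os and Slc7a6os) are opposite-strand genes that share the start of their symbols with a transporter. Splenic CD4 T cells of C57BL/6 mice, sorted to a purity above 98%, were activated through the T cell receptor and CD28 for 2 days in 1 of 2 media and harvested after 3 more days. The CD103+ Th1 medium held IL-4 at 3 ng/ml, IFNgamma at 10 ng/ml and TGFbeta at 3 ng/ml. The Th1 medium held IL-12 at 1 ng/ml and the anti-IL-4 antibody 11B11 at 1 µg/ml. Cells of both cultures were described as wild type. Each condition gave 1 Affymetrix array, so nothing below has a replicate check, no test was possible, and every fold compares 2 arrays. The number of mice behind each culture was not given in the labels used here.

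Amino acid transporters set how fast a dividing T cell can take up the building blocks of protein. Activated T cells import leucine and other large neutral amino acids through a pair of proteins, the light chain encoded by Slc7a5 and the CD98 heavy chain encoded by Slc3a2, and this uptake keeps the growth kinase complex mTORC1 active. Glutamine enters largely through the products of Slc1a5, Slc38a1 and Slc38a2, and arginine through that of Slc7a1. Other members sit on lysosomes, where they return amino acids to the cytosol or report on their supply, and most of the SLC6 family serves nerve, kidney and gut.

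Signals are linear and in arbitrary units. The floor for a usable signal was the median of all signals, 78.5, and a gene was measured where its brightest probe set reached it on at least 1 array. Array medians were 78.0 in the CD103+ Th1 culture and 78.8 in the Th1 culture. Of the 6 T cell markers checked, all were above the floor in both cultures, with summed signals of 63951 in the CD103+ Th1 culture and 58101 in the Th1 culture. Of the markers of other cells with a probe set, 3 of 7 B cell genes, 4 of 8 myeloid and dendritic cell genes, 3 of 4 CD8 T and NK cell genes, 0 of 2 erythroid genes and 3 of 5 epithelial or stromal genes were measured. Their summed signals were, with CD103+ Th1 first, 558 and 474 for B cells, 433 and 758 for myeloid cells, 6967 and 3351 for CD8 T and NK cells, 52.5 and 24.8 for erythroid cells, and 424 and 568 for epithelial or stromal cells. None of these marker genes was listed at 0, and some, such as Ms4a1, Cd79a, Pax5, Lyz2, Itgam, Cd14 and Ncr1, lay under the floor. Others were past 2-fold, with CD103+ Th1 first. Cd8a (2054 and 466), Cd8b1 (1593 and 697) and Cd79b (244 and 75.8, the latter under the floor) were higher. Cd68 (104 and 233) and Krt18 (39.6, under the floor, and 228) were lower. The 5 measured probe sets of Cd8a had log2 ratios from 0.24 to 2.16. Klrk1, also in the CD8 T and NK cell sum, had 3293 and 2163, 1.52-fold higher. The CD8 T and NK cell sum was thus higher and the myeloid sum lower in CD103+ Th1, and their part in the values below was not tested. In bulk RNA, fewer cells of a type and less RNA per cell cannot be told apart.

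Among the amino acid carriers, 31 of 63 genes were measured, 28 of them on both arrays. Slc7a5 and Slc7a3, which carry large neutral and cationic amino acids, had signals more than 2-fold lower in CD103+ Th1 than in Th1, and Slc43a2, another carrier of large neutral amino acids, was more than 2-fold higher on its brightest probe set. With signals under the floor set to it, the other 28 measured members lay within 2-fold, 27 of them within 1.5-fold. For Slc7a7, Slc6a13 and Slc6a18, under the floor on 1 array, these ratios are bounds. Without the floor their log2 ratios were -0.82, -1.02 and 1.05. Of all measured genes, 25.9% reached 1.5-fold in either direction. Of the 31, 1 (3.23%) was thus at least 2-fold higher, against 5.04% of the 11162 measured genes of the whole array, and 2 (6.45%) were at least 2-fold lower, against 4.88%. In either direction the shares were 9.68% of members and 9.93% of all genes, so the count of members past 2-fold was near the background. With floored signals, a gene under 2 times the floor on its brighter array cannot reach 2-fold. That held for 10 of the 31 members and 1659 of the 11162 genes, so the shares do not compare like signal levels. The members had a median log2 ratio of -0.16, with 13 above 0 and 18 below, beside -0.03 for all measured genes, of which 52.6% were below 0, 5% lay below -0.98 and 5% above 1.00. The brightest and next brightest probe sets of a gene differed by a median of 0.22 in log2 ratio over 4666 genes, and by more than 0.85 in 5% of them. These probe sets were above the floor on both arrays. Their spread shows how far probe sets disagree on the same 2 arrays and is no replicate error.

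**Figure D1:**
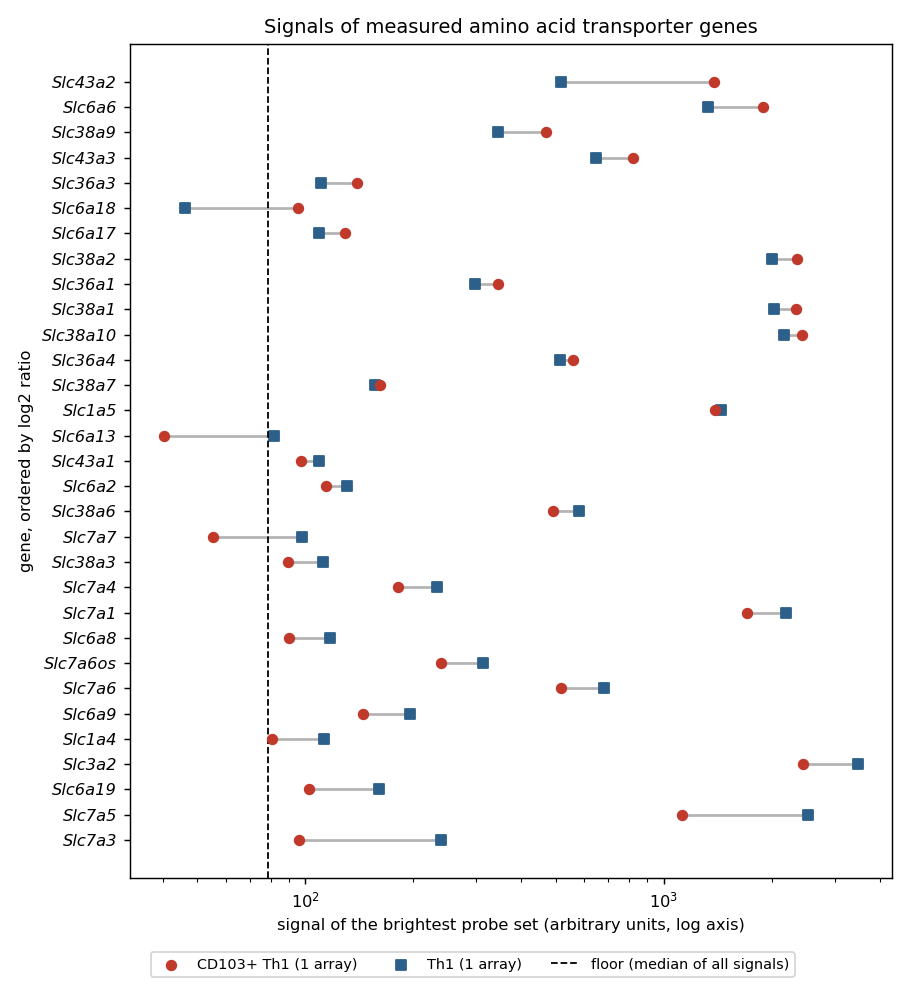
Signals of the brightest probe set of each of the 31 measured members on both arrays (arbitrary units, log axis), with the floor as a dashed line and genes ordered by log2 ratio. Slc43a2 at the top and Slc7a5 and Slc7a3 at the bottom have the widest gaps among genes above the floor on both arrays, and Slc6a13, Slc6a18 and Slc7a7 cross the floor.

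Of the heavy chains and the light chains that pair with them, 4 were measured, and 1, Slc7a5, was at least 2-fold lower in CD103+ Th1, while Slc3a2, Slc7a6 and Slc7a7 were within 1.5-fold or had a bound there. The Slc7a5 signal was 1126 in the CD103+ Th1 culture and 2521 in the Th1 culture, 2.24-fold lower, on the gene's 1 probe set. Only 382 of the 11162 measured genes had a log2 ratio as low as its -1.16. Slc3a2, the heavy chain that brings the Slc7a5 product to the cell surface, had signals of 2441 and 3475, 1.42-fold lower, also on 1 probe set. The partners had log2 ratios of -1.16 and -0.51, each on 1 probe set, and the difference between them was not tested. Slc7a6, a light chain that exchanges cationic for neutral amino acids, had signals of 515 and 680 on its brightest probe set, but its other probe set pointed the opposite way, with log2 ratios of -0.40 and 0.33. Slc7a7, a light chain with the same exchange, had 55.4 in CD103+ Th1, under the floor, and 98.0 in Th1, so that it was at least 1.25-fold lower. The other heavy chain gene Slc3a1 and the light chain genes Slc7a8, Slc7a9, Slc7a10, Slc7a11 and Slc7a13 lay under the floor in both cultures. Slc7a11, which encodes the cystine and glutamate exchanger, had signals of 48.1 and 46.5.

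Of the 3 measured SLC7 genes of the cationic carrier group, 1, Slc7a3, was at least 2-fold lower in CD103+ Th1, and Slc7a1 and Slc7a4 were within 1.5-fold. Slc7a1, the main arginine carrier of many cell types, had signals of 1703 in the CD103+ Th1 culture and 2198 in the Th1 culture, 1.29-fold lower. Its 3 measured probe sets had log2 ratios from -0.54 to -0.03, the latter a bound and -0.19 without the floor. Slc7a3, a further arginine and lysine carrier, had 96.0 and 239, 2.49-fold lower on 1 probe set, and the CD103+ Th1 value lay close to the floor. Among the 1389 genes whose brighter signal was, like that of Slc7a3, at 2 to 4 times the floor, 10.7% were at least 2-fold lower, against 4.89% of the 8114 brighter genes. Slc7a4, a relative of the cationic carriers, had 181 and 232, 1.28-fold lower. All 6 measured SLC7 transporter genes had log2 ratios below 0 on their brightest probe sets, 2 of them past 2-fold, and 52.6% of all measured genes were below 0. Slc7a2, which encodes an arginine carrier of macrophages and liver, lay under the floor, as did Slc7a12, Slc7a14 and Slc7a15. The opposite-strand gene Slc7a6os, which encodes a protein and no transporter, had 239 and 312, with a log2 ratio of -0.38 on that probe set and 0.46 on the other.

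The 3 genes of the SLC43 family gave ratios on both sides of 0. Slc43a2, which lets leucine and other large neutral amino acids pass without a heavy chain, had signals of 1384 in the CD103+ Th1 culture and 516 in the Th1 culture, 2.68-fold higher. Its other measured probe set gave 462 and 446, a log2 ratio of 0.05 against 1.42, and the third lay under the floor. The difference in Slc43a2 therefore rests on 1 of 2 measured probe sets, and their mean was 0.74. The 250 bases before the first listed start of Slc43a2 (RefSeq, GRCm38.p6, chr11:75531444-75531693, plus strand) are shown because it was the 1 member more than 2-fold higher.
Slc43a2: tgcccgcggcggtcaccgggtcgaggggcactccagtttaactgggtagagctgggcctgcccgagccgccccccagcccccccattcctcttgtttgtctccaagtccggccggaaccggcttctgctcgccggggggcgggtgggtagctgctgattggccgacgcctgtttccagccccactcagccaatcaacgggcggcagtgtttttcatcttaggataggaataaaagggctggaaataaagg
Slc43a1, a related carrier, had 97.2 and 109, both close to the floor. Slc43a3, which carries purine bases and not amino acids, had 819 and 646, 1.27-fold higher.

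**Figure D2:**
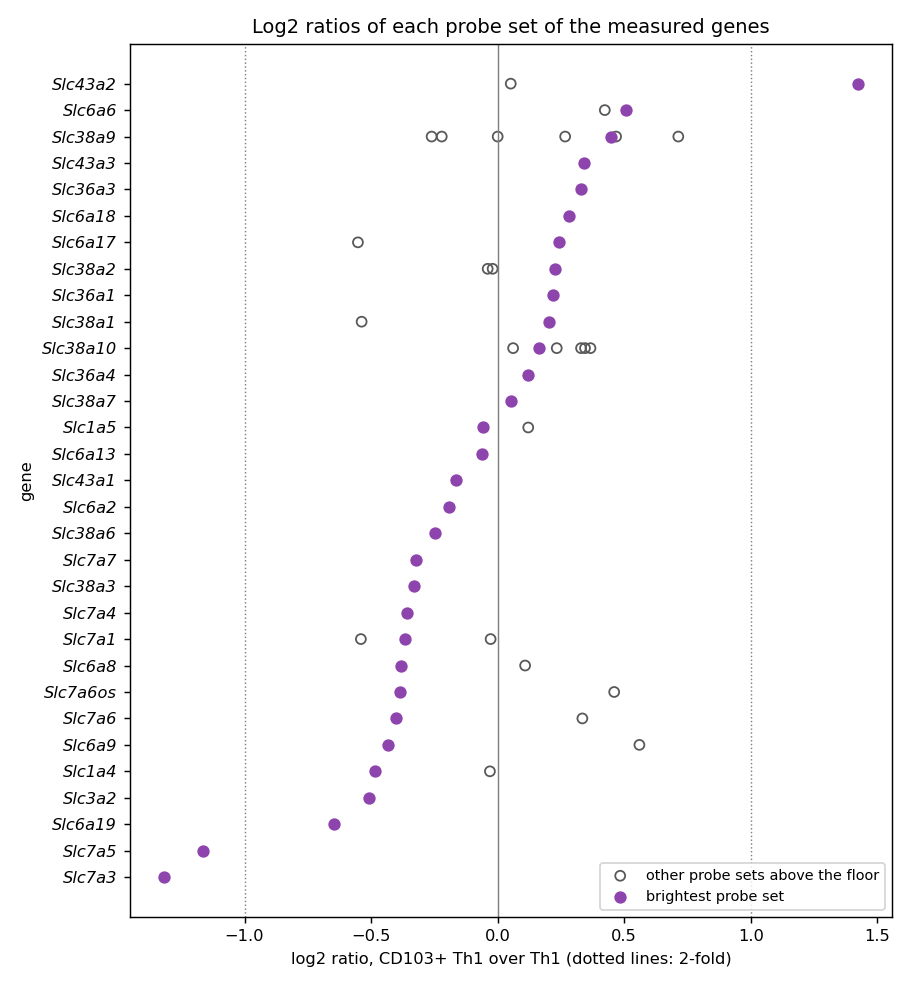
Log2 ratio of CD103+ Th1 over Th1 for each probe set above the floor on at least 1 array, by gene, with the brightest probe set filled and the others open. The open point of Slc43a2 at 0.05 lies far from its filled point at 1.42, and 9 of the 14 genes with several measured probe sets have points on both sides of 0. Points of probe sets under the floor on 1 array are bounds.

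Slc1a5, Slc1a4, Slc38a1 and Slc38a2, which carry glutamine or small neutral amino acids, differed by less than 1.5-fold between the cultures on their brightest probe sets. Slc1a5, an exchanger of glutamine and other neutral amino acids, had signals of 1391 in the CD103+ Th1 culture and 1448 in the Th1 culture, with log2 ratios of -0.06 and 0.12 on its 2 probe sets. Slc1a4, its relative for alanine, serine and cysteine, had 80.8 and 113, near the floor, with log2 ratios of -0.48 and, as a bound, -0.03 on its 2 measured probe sets. Slc38a1, a sodium-coupled glutamine carrier, had 2339 and 2031, but the ratio was 0.20 on this probe set and -0.54 on the other, as log2. Slc38a2, the related carrier that many cells raise when amino acids are short, had 2351 and 2009 and log2 ratios from -0.04 to 0.23 over 3 probe sets. The glutamate carriers Slc1a1, Slc1a2, Slc1a3, Slc1a6 and Slc1a7 were all under the floor, as were Slc38a4 and Slc38a5.

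The remaining SLC38 genes and the SLC36 genes include carriers of lysosomes. Slc38a9, which encodes the lysosomal arginine sensor of mTORC1, had signals of 469 in the CD103+ Th1 culture and 344 in the Th1 culture, 1.36-fold higher, with log2 ratios between -0.26 and 0.71 over its 7 probe sets. Slc38a7, which encodes a lysosomal glutamine carrier, had 162 and 156. Slc38a10 had 2426 and 2166, with all 6 measured probe sets above 0, from 0.06 to 0.37. Slc38a6 had 489 and 581, and Slc38a3, a glutamine carrier of liver, kidney and brain, had 89.3 and 112. The proton-coupled carriers Slc36a1, Slc36a3 and Slc36a4 had 346 and 297, 139 and 111, and 558 and 514, each with CD103+ Th1 first. All 3 were thus above 0, by 1.09-fold to 1.26-fold, and Slc36a2 and Slc36a1os lay under the floor.

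Members of the SLC6 family carry neurotransmitters, amino acids, taurine and creatine with sodium and chloride. Of the 21 genes with its symbol, which include the opposite-strand gene Slc6a19os, 8 were measured. Slc6a6, the taurine carrier, had signals of 1885 in the CD103+ Th1 culture and 1326 in the Th1 culture, 1.42-fold higher, and its 2 measured probe sets agreed in direction at 0.42 and 0.51. The other measured genes had low signals on their brightest probe sets, with none at 4 times the floor. Slc6a9, a glycine carrier, had 145 and 196, but its probe sets gave -0.43 and 0.56. Slc6a8, the creatine carrier, had 89.9 and 117, with log2 ratios of -0.38 and, as a bound on its other probe set, 0.11. That other probe set had 84.6 and 37.3, a log2 ratio of 1.18 without the floor. Slc6a19, a neutral amino acid carrier of gut and kidney, had 102 and 160, 1.57-fold lower, and was the member between 1.5-fold and 2-fold. Slc6a17 had 129 and 109, a log2 ratio of 0.24, against -0.55, a bound, on its other measured probe set. Slc6a2, the noradrenaline carrier, had 114 and 130. Slc6a18 was under the floor in Th1 (95.4 against 46.1) and Slc6a13, a carrier of GABA, in CD103+ Th1 (40.4 against 81.8), so that Slc6a18 was higher by 1.22-fold or more and Slc6a13 lower by 1.04-fold or more. Slc6a3, Slc6a4, Slc6a5, Slc6a7, Slc6a11, Slc6a12, Slc6a14, Slc6a15, Slc6a16, Slc6a20a, Slc6a20b, Slc6a21 and Slc6a19os were under the floor. The highest signal of any of the 32 members under the floor was 66.5, that of Slc1a7 in Th1.

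**Figure D3:**
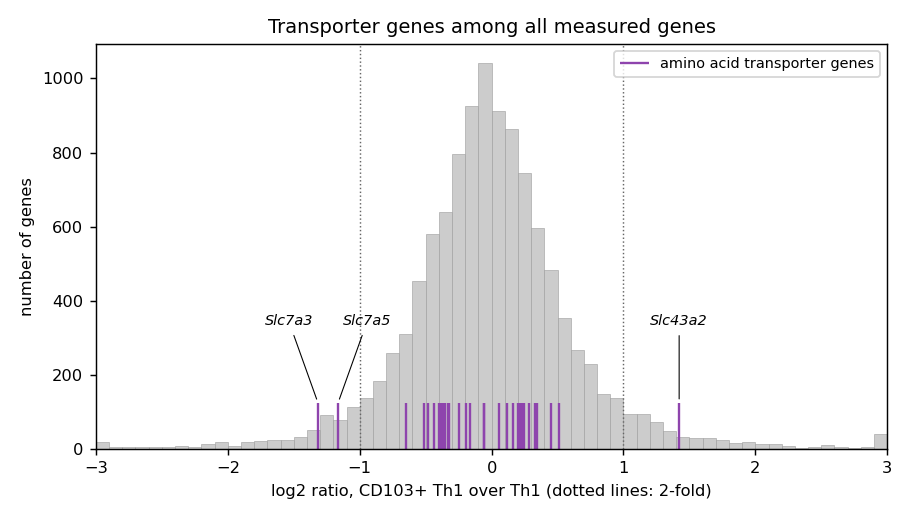
Histogram of log2 ratios, CD103+ Th1 over Th1, of all 11162 measured genes, with the 31 measured members as purple lines (53 genes beyond 3 either way are drawn in the outer bars). Apart from Slc43a2 at 1.42, Slc7a5 at -1.16 and Slc7a3 at -1.32, the members lie between the 2-fold lines. Slc6a13, Slc6a18 and Slc7a7 are drawn at bounds.

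Other genes of amino acid use were read from lists. In the list of the amino acid response driven by the transcription factor ATF4, with serine and asparagine synthesis, 3 of 20 measured genes were lower in CD103+ Th1 by 2-fold or more and 0 were higher by as much, beside 4.88% and 5.04% of all measured genes. The median log2 ratio was -0.47, and 16 of 20 genes were below 0, beside 52.6% of all genes. Asns, which makes asparagine, had signals of 453 in the CD103+ Th1 culture and 2180 in the Th1 culture, and its 2 probe sets gave log2 ratios of -2.31 and -2.27. Phgdh, the first enzyme of serine synthesis, had 3572 and 8657, 2.42-fold lower, with probe sets from -1.28 to -0.40. Eif4ebp1, which encodes a brake on translation that mTORC1 releases, had 2351 and 5740, 2.44-fold lower, with probe sets from -1.29 to -0.29. Atf4 itself was 1.36-fold lower, at 3305 and 4508. The 4 genes above 0 were Sesn2, Atf3, Trib3 and Ddit3, with log2 ratios of 0.52, 0.41, 0.18 and 0.12 on their brightest probe sets. The other measured probe set gave -0.33 for Sesn2, 0.70 for Trib3 and -0.02 for Ddit3, and Atf3 had 1.

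Genes of lysosomal amino acid sensing and mTORC1 were split evenly, with 16 of 32 measured genes above 0, a median of -0.02, and 1 past 2-fold in each direction. Of all measured genes, 5.04% were higher and 4.88% lower by as much. Sesn3, of the sestrin family that restrains mTORC1, had signals of 3584 in the CD103+ Th1 culture and 1628 in the Th1 culture, with log2 ratios of 1.09 and 1.14 on its 2 probe sets. Fnip2, a partner of folliculin, was at least 2.95-fold lower, at 67.3 and 232. Among enzymes of glutamine, branched-chain amino acid, arginine and glutathione metabolism, 2 of 16 were lower by 2-fold or more and 0 higher by as much. The shares of all measured genes were 4.88% and 5.04%, and the median of the enzymes was -0.19. Bcat1, which starts the breakdown of leucine in the cytosol, had 164 and 686, 4.19-fold lower on its brightest probe set, with probe sets from -2.07 to -0.09. Gpt2, a mitochondrial alanine aminotransferase, had 79.4 and 260, 3.27-fold lower, the former next to the floor, with 3 probe sets from -1.71 to -0.81. Without probe sets whose identifiers carry a suffix letter, 0 of these enzymes passed 2-fold.

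Transporters of amino acids and peptides outside the 7 families had a median of 0.29 over 14 measured genes. Of these, 2 were higher by 2-fold or more and 0 lower by as much, beside 5.04% and 4.88% of all measured genes. Slc15a3, a lysosomal peptide and histidine carrier, had signals of 273 in the CD103+ Th1 culture and 112 in the Th1 culture, 2.43-fold higher. Slc25a38, a mitochondrial glycine carrier, had 768 and 354, 2.17-fold higher. Of 7 transcription factors known to act on transporter genes, 1 was past 2-fold in each direction, beside the same shares of all measured genes. Tfeb, a regulator of lysosomal genes, was 2.12-fold higher (295 against 139) and Mycn 2.59-fold lower (96.9, close to the floor, against 251). The 2 measured probe sets of Mycn gave log2 ratios of -1.37 and -0.71. Myc, which drives transporter expression in activated T cells, had 2130 and 3479, 1.63-fold lower, and Hif1a 9441 and 14255, 1.51-fold lower. Tfe3 was 1.36-fold higher, and Nfe2l2 1.33-fold higher with a log2 ratio of -0.40 on its other measured probe set. Of the 7 factors, 3 were above 0 and 4 below.

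**Figure D4:**
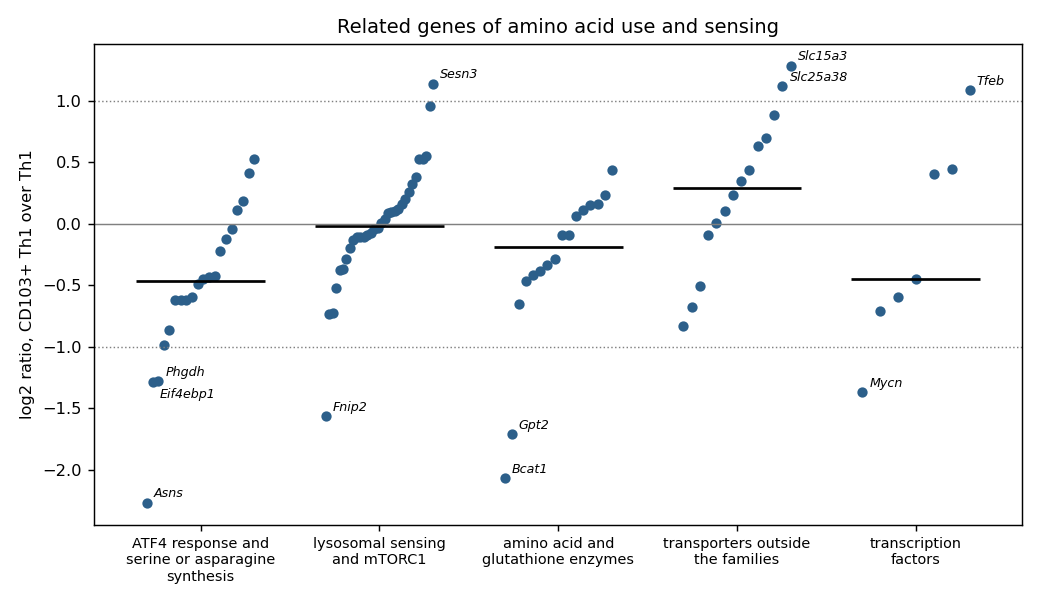
Log2 ratios, CD103+ Th1 over Th1, of measured genes in 5 lists (points in order of value within a list, black bars the medians, dotted lines 2-fold, genes past 2-fold named). The ATF4 list has its median at -0.47 and the transporters outside the families at 0.29.

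RefSeq promoter sequences (GRCm38.p6) matched 20 of the 31 measured members, with 32 windows of 300 bases in all because some genes have several starts. Slc7a5 and Slc7a3 were not among the 20, so their promoters were not searched. They were searched on both strands for TGATGNAAN, the element bound by ATF4 with C/EBP factors, and for CACGTG, the site bound by MYC and by TFEB. TGATGNAAN was found in 3 of the 32 windows (9.38%), of which 1 belongs to Slc1a4 and 2, which overlap, to Slc7a7, and in 3.95% of all 32851 windows. CACGTG was found in 3 windows (9.38%), of Slc36a1, Slc38a7 and Slc43a1, against 7.15% of all windows. The matches to TGATGNAAN are shown in capitals, in the sense of the gene, because ATF4 is a known regulator of several amino acid carriers. The first base of the match lies at -5 from the start for Slc1a4 (chr11:20332690-20332738, minus strand), where it is read on the opposite strand, and at -141 and -1 for Slc7a7 (chr14:54418057-54418105 and chr14:54417917-54417965, minus strand).
Slc1a4: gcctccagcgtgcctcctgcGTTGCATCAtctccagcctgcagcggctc
Slc7a7 at -141: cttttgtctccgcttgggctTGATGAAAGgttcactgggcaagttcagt
Slc7a7 at -1: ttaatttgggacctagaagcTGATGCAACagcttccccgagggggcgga
Both genes had signals close to the floor, with log2 ratios of -0.48 for Slc1a4 and -0.32, a bound, for Slc7a7. The Slc43a2 sequence shown with its signals holds neither motif.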

How the data were processed

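Per the labels' protocols, RNA prepared with Trizol carried a biotin label, and 1 Affymetrix array was run per culture. The authors deposited linear signal intensities, 1 for each probe set of each array, and the submitters' processing notes name GCOS. Version, scaling and filters are not given in the sources used here.

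Probe sets were named by the platform annotation where it gave exactly 1 gene (34945 of 45037, with 932 naming several and 9160 not listed), and symbols were updated through the GRCm38.p6 gene table, which held all 63 members. A gene was read from its brightest probe set, by mean log2 signal. Signals under the median of all signals, 78.5, were set to it. A gene under it on both arrays got no ratio, and under it on 1 array a bound. Genes at 2-fold or more were counted, with no test. With 1 array per condition, the number of arrays limits the precision. Steps were tested on simulated data with Python 3.11.15 and pandas 2.3.3. Alternatives covered scaling, floor, pseudocount, probe set choice and fold threshold.

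Members were named by role, all of them, and genes of other lists where past 2-fold. Atf4, Sesn2, Atf3, Trib3, Ddit3, Myc, Hif1a, Tfe3, Nfe2l2 and Klrk1 were added after their values were seen, as was the CACGTG search. Members and lists were chosen with earlier results of these data known.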

Additional observations from a re-analysis of the deposited data

How the results depend on the processing

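Slc7a5, Slc7a3 and Slc43a2 kept their direction under the 7 alternatives on scaling, floor, pseudocount and probe sets, where each gave a ratio. Slc7a5 and Slc7a3 have 1 probe set each, so the choice of probe sets could not change their ratios. Floors below their signals could not do so either. Of the 31 measured members, 5 changed sign under at least 1 of them, each within 1.5-fold as reported. Members at least 2-fold higher numbered 3 with the floor at the 25th percentile of signals, 0 with the mean of a gene's probe sets and 0 at 4-fold. Members at least 2-fold lower numbered 1 with the floor at the 75th percentile and 0 at 4-fold. Measured members numbered 53 with the lower and 13 with the higher floor. Their median was -0.15 with medians set equal, -0.18 after quantile normalization and -0.061 with the mean of probe sets, and it turned to 0.12 with the higher floor, where fewer genes were measured. Counts of all genes, higher and lower, were 974 and 1206 of 15755 measured with the lower floor, and 267 and 199 of 7166 with the higher. Of the 11162 genes measured with the main floor, they were 1389 and 1497 at 1.5-fold, and 108 and 86 at 4-fold. Of the ATF4 list, 5 genes passed 2-fold with the lower floor, 9 passed 1.5-fold and 1 passed 4-fold. Of the mTORC1 list, 1 passed with the higher floor, 5 passed 1.5-fold and 0 passed 4-fold. Of the enzymes, 0 passed with the higher floor, 0 without suffixed probe sets and 1 at 4-fold. Of the other transporters, 0 passed with the higher floor, 7 at 1.5-fold and 0 at 4-fold. Of the transcription factors, 0 passed with the higher floor, 1 with a pseudocount, 4 at 1.5-fold and 0 at 4-fold. Of the T cell genes, 1 passed 1.5-fold. The cause of these shifts was not tested where the floor or threshold does not itself set the count. No paired analysis was possible because each condition had 1 array.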

Other observations

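Among carriers outside the 7 families, the following were named after their values were seen, and none passed 2-fold. Ctns, which encodes the lysosomal cystine carrier, had 243 in CD103+ Th1 against 150 in Th1, a log2 ratio of 0.70 on 1 probe set. Slc66a1, which carries cationic amino acids out of lysosomes, had 315 and 203, a log2 ratio of 0.64 on 1 probe set. Slc15a4, a lysosomal peptide and histidine carrier, had 493 and 701, a log2 ratio of -0.51 on 1 probe set.

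Of the mitochondrial carriers, Slc25a12 and Slc25a13 encode the aspartate and glutamate exchangers of the malate-aspartate shuttle. Slc25a12 had 2467 in CD103+ Th1 and 1824 in Th1, with 3 probe sets from 0.44 to 0.67 on the log2 scale. Slc25a13 had 115 and 206, a log2 ratio of -0.83 on 1 probe set. The pair thus had ratios of opposite sign.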
